A study of Mus musculus with 6 samples.

Results

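Aminoacyl-tRNA synthetases were measured by RNA-Seq in mouse CD8+ T cells grown with aminoxyacetic acid (AOA) or vehicle. The family held 38 of the 11922 genes in the count matrix. Members were taken by gene symbol, as the letter of an amino acid followed by "ars" with or without a final 1 or 2, together with the subunit genes Farsa and Farsb, the bifunctional Eprs and the paralog Tarsl2. Genes whose names end in 2 encode the mitochondrial enzymes (17 genes), and the rest encode the cytosolic enzymes (19 genes). The 2 genes Gars and Kars encode the glycine and lysine enzymes of both compartments. Tarsl2 ends in 2 but was counted as cytosolic, because it is a second cytosolic threonine enzyme. All 38 genes passed the filter on low counts, so every member was tested.

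A synthetase joins an amino acid to the tRNA that carries its anticodon and so sets which residue is placed at each codon. Nuclear genes encode separate sets for the cytosol and for the mitochondrion, where the enzymes serve translation of the few proteins of the mitochondrial genome. Many cytosolic synthetase genes are targets of ATF4, the transcription factor that is raised when uncharged tRNA activates the kinase GCN2, and activated T cells depend on amino acid supply to grow and divide.

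Splenic CD8+ T cells came from 3 C57BL6/J mice, and each mouse gave 1 vehicle (water) culture and 1 culture with 0.25 mM AOA, an inhibitor of enzymes that use vitamin B6 (pyridoxal 5'-phosphate, PLP) as cofactor. All cultures were activated with anti-CD3/anti-CD28 Dynabeads for 72 hours, expanded for 4 more days and kept in IL-2 at 100 units/ml, with water or AOA present for all 7 days. The cells had been isolated on anti-CD8α microbeads, and each library stands for 1 mixed culture from 1 donor. The labels give no age. Total counts were 12881962 to 18934869 with vehicle and 18696114 to 21997078 with AOA, and vehicle replicate 2 and AOA replicate 1 stood apart from the other replicates of their groups (chi-square per gene of 55.9 to 72.3 against the others, and of 10.2 and 10.7 between those others). Counts were normalised by the TMM method and given as CPM, a count scaled to the size of its library, and log2 fold changes are of AOA relative to vehicle, each with its SE after ±. A gene was called changed at an adjusted p under 0.05 in the quasi-likelihood test of edgeR over 11759 genes. These p-values measure the spread between the 3 cultures of each group, and an exact permutation test of 3 against 3 could not give a p below 0.1.

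CD8 T cell markers (Cd3d, Cd3e, Cd3g, Cd8a, Cd8b1) were abundant in every library, with a summed level of 2907 to 3736 CPM with vehicle and 3994 to 4644 CPM with AOA. Cd8a and Cd8b1 rose (1.03 and 0.64 on the log2 scale, edgeR adjusted p of 0.00128 and 0.0148), whereas Cd3d, Cd3e and Cd3g had log2 fold changes of -0.13, -0.27 and -0.31 and were not called. The 2 CD4 T cell markers summed to 143 to 192 CPM with vehicle and 16.9 to 35.6 CPM with AOA. The 3 myeloid markers in the matrix, Itgam, Cd68 and Lyz2, summed to 55.2 to 66.5 CPM with vehicle and 4.18 to 7.77 CPM with AOA. Csf1r and Adgre1 were not among the genes of the matrix. Lyz2, too low to test, had 0, 5 and 0 counts with vehicle and 6, 22 and 2 counts with AOA. B cell markers summed to 12.6 to 16.6 CPM and 22.6 to 30.7 CPM, with Ebf1 not in the matrix. The 3 NK cell markers, Eomes, Klrb1c and Ncr1, summed to 145 to 308 CPM and 128 to 213 CPM. Within that sum Klrb1c had 41.7, 111 and 20.1 CPM with vehicle and 6.99, 11.05 and 3.38 CPM with AOA and fell (-3.02 ± 0.62 on the log2 scale, edgeR adjusted p = 0.00310), and vehicle replicate 2 was the highest library. Ncr1, also in the sum but too low to test, had 0, 37 and 0 counts in vehicle replicates 1, 2 and 3 and 5, 11 and 3 counts with AOA. None of the 4 erythroid markers was listed. Which cells these transcripts came from, CD8 T cells included, was not tested, nor was the part of other cells in the synthetase results. Because RNA came from whole cultures, fewer cells of a type and less RNA per cell cannot be told apart.

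Synthetase transcripts were higher with AOA more often than lower. Of the 38 genes, 17 rose (44.7%) and 3 fell (7.89%), where 26.2% of all tested genes rose and 26.8% fell, or 53% in either direction. The median log2 fold change was 0.44 over the family (0.45, 0.27 and 0.62 in mice 1, 2 and 3) and -0.02 over all tested genes. In 19 synthetase genes all 3 AOA libraries lay above all 3 vehicle libraries, and in 4 genes they lay below, while 31% and 31.1% of all tested genes were separated in these directions. The whole family took 0.535, 0.532 and 0.488% of the counts with vehicle and 0.411, 0.505 and 0.492% with AOA. Without Lars2, its most abundant transcript, it took 0.255, 0.338 and 0.264% of the counts with vehicle and 0.321, 0.392 and 0.387% with AOA, so that the ranges overlapped at vehicle replicate 2 and AOA replicate 1. Without vehicle replicate 2, 26 synthetase genes rose and 2 fell, against 29.6% and 27.9% of all genes tested in that fit (57.6% in either direction). With the mouse as a block, 19 rose and 3 fell, against 26.6% and 26.9% of all tested genes (53.5% in either direction). Without vehicle replicate 3, 10 rose (26.3%) and 2 fell (5.26%), against 22.1% and 21.3% of all genes tested in that fit (43.4% in either direction).

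**Figure D1:**
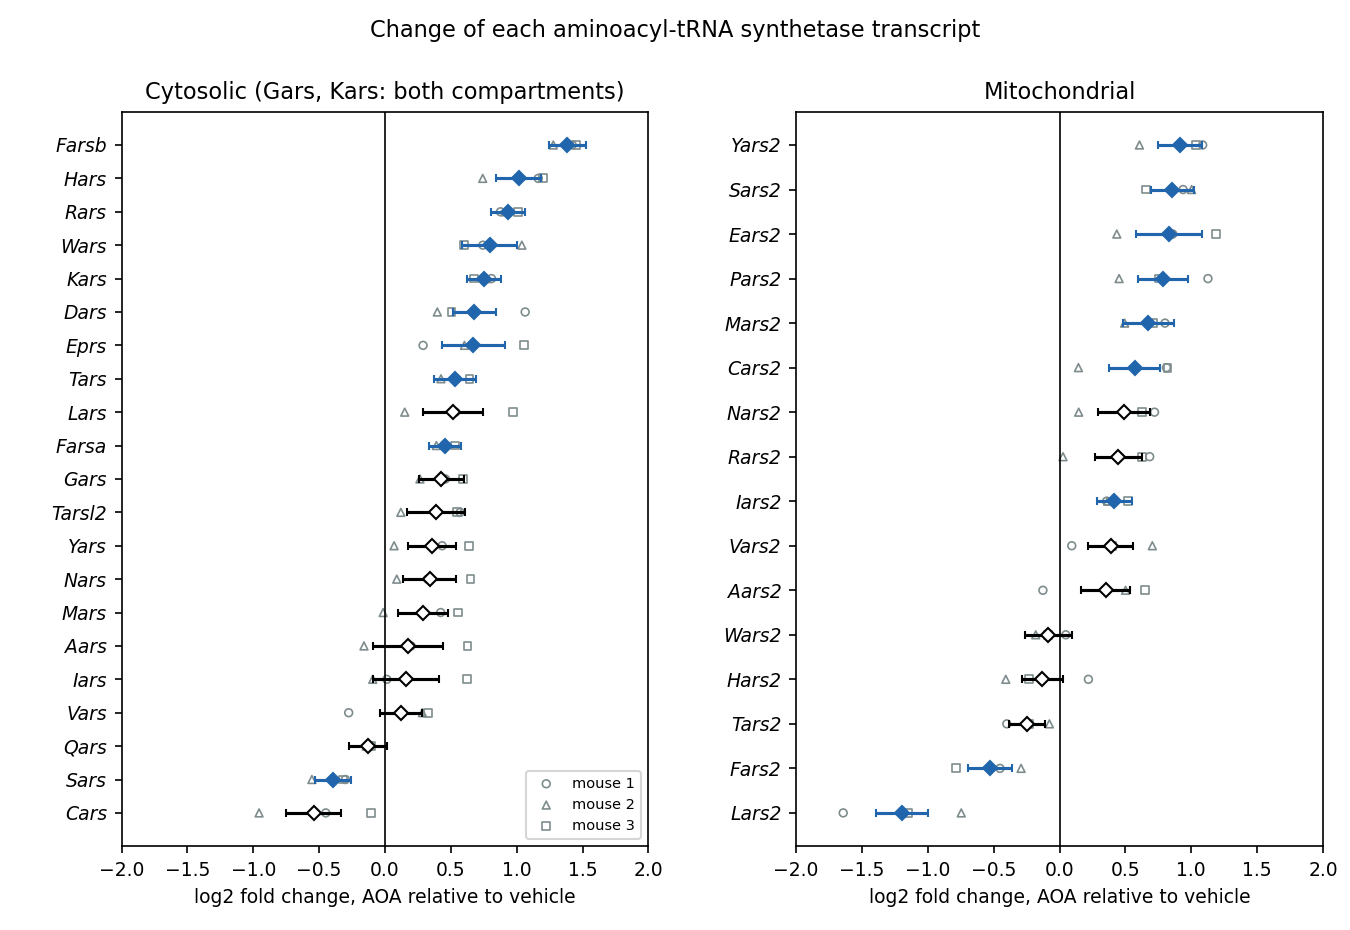
Fitted log2 fold change of 37 synthetase transcripts, AOA relative to vehicle (diamonds, bars are 1 SE; filled blue diamonds mark genes with an edgeR adjusted p under 0.05), with the difference in log2 CPM within each of the 3 mice as open symbols. Farsb (1.38) stands highest among the cytosolic enzymes and Lars2 (-1.19) lowest among the mitochondrial ones, and most of the other genes lie to the right of 0.

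Among the 19 cytosolic enzymes 8 rose (42.1%) and 1 fell (5.26%), beside 26.2% and 26.8% of all tested genes, with a median log2 fold change of 0.39. The number that rose was 14 without vehicle replicate 2 (73.7%, beside 29.6% of all genes in that fit) and 5 without vehicle replicate 3 (26.3%, beside 22.1%). Farsb (Entrez 23874, chr1:78417975-78488897, minus strand, GRCm38) encodes the beta subunit of the phenylalanine enzyme, and it had 35.7, 44.8 and 41.0 CPM with vehicle and 95.8, 109 and 113 CPM with AOA. The groups were far apart, and the log2 fold change was 1.38 ± 0.14, a 2.61-fold rise (edgeR adjusted p = 8.00e-05). Hars, the histidine enzyme, had 47.0, 71.3 and 51.6 CPM with vehicle and 105, 119 and 119 CPM with AOA, with every AOA library above every vehicle library and a log2 fold change of 1.01 ± 0.17 (edgeR adjusted p = 0.00113). Rars, the arginine enzyme, had 73.1, 81.9 and 72.1 CPM with vehicle and 134, 154 and 146 CPM with AOA, a log2 fold change of 0.93 ± 0.13 (edgeR adjusted p = 3.65e-04) and no overlap of the groups. These 3 transcripts were called under every alternative that was tried.

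Wars, the tryptophan enzyme, had 61.0, 75.7 and 95.05 CPM with vehicle and 102, 156 and 144 CPM with AOA. Its groups did not overlap, though vehicle replicate 3 and AOA replicate 1 were close, and the log2 fold change was 0.79 ± 0.21 (edgeR adjusted p = 0.0100). Dars, the aspartate enzyme, had 88.6, 97.3 and 93.7 CPM with vehicle and 185, 128 and 133 CPM with AOA, a log2 fold change of 0.68 ± 0.16 (edgeR adjusted p = 0.00710). AOA replicate 1 was the highest library for Dars, whereas it was the lowest AOA library for 20 of the 21 cytosolic or dual genes. Eprs joins glutamate and proline to their tRNAs from 1 polypeptide, and Tars joins threonine. Eprs rose by 0.67 on the log2 scale (edgeR adjusted p = 0.0407) with overlapping groups, and Tars by 0.53 (edgeR adjusted p = 0.0180) without overlap. Both lost the call without vehicle replicate 1 (adjusted p of 0.123 for Eprs and 0.0717 for Tars in edgeR), without vehicle replicate 3 (0.113 and 0.0591), without AOA replicate 2 (0.127 and 0.0623) and without AOA replicate 3 (0.120 and 0.0573).

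Sars (Entrez 20226, chr3:108424865-108445209, minus strand), the serine enzyme, was the cytosolic transcript that fell. It had 278, 339 and 293 CPM with vehicle and 226, 231 and 235 CPM with AOA, and every AOA library lay below every vehicle library. The log2 fold change was -0.40 ± 0.14 (edgeR adjusted p = 0.0332). It passed the threshold narrowly: the edgeR adjusted p was 0.0604 with the mouse as a block and between 0.0643 and 0.0991 without vehicle replicate 1, 2 or 3 or without AOA replicate 2 or 3. Cars, the cysteine enzyme, had 39.8, 63.1 and 37.4 CPM with vehicle and 29.1, 32.5 and 34.8 CPM with AOA. Its groups did not overlap either, and vehicle replicate 2 was well above the other vehicle libraries. The log2 fold change was -0.54 ± 0.21 and missed the threshold (edgeR adjusted p = 0.0507), while the fit with the mouse as a block gave -0.50 (edgeR adjusted p = 0.0376) and the fit without vehicle replicate 2 gave -0.23 (edgeR adjusted p = 0.191).

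Kars and Gars were the enzymes shared by cytosol and mitochondrion. Kars (Entrez 85305, chr8:111993443-112011323, minus strand) had 151, 163 and 177 CPM with vehicle and 264, 278 and 283 CPM with AOA, with a log2 fold change of 0.75 ± 0.13 (edgeR adjusted p = 0.00129) and narrow spread within both groups. Gars had 178, 253 and 189.8 CPM with vehicle and 245, 304 and 286 CPM with AOA, and AOA replicate 1 lay below vehicle replicate 2. Its log2 fold change of 0.43 ± 0.17 missed the threshold (edgeR adjusted p = 0.0601), whereas with the mouse as a block it was 0.44 (edgeR adjusted p = 0.0392). Gars was higher with AOA within each of the 3 mice. Lars, the leucine enzyme, had 52.9, 90.2 and 51.6 CPM with vehicle and 76.8, 100.1 and 101 CPM with AOA and behaved likewise: vehicle replicate 2 lay within the AOA range, the log2 fold change was 0.51 ± 0.23 (edgeR adjusted p = 0.0822), and the blocked fit gave 0.55 (edgeR adjusted p = 0.0214). Without vehicle replicate 2, Gars was at 0.63 and Lars at 0.86, and both were called (edgeR adjusted p of 0.00608 and 0.00163). Tarsl2 had low counts, 7.30, 11.9 and 8.63 CPM with vehicle and 10.9, 12.9 and 12.7 CPM with AOA. Its log2 fold change was 0.39 ± 0.22 and was not called (edgeR adjusted p = 0.162), except without vehicle replicate 2, where it was 0.64 (edgeR adjusted p = 0.0179).

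A group of cytosolic transcripts had small differences between the groups. Yars (tyrosine), Nars (asparagine), Mars (methionine), Aars (alanine), Iars (isoleucine) and Vars (valine) had log2 fold changes of 0.36, 0.34, 0.29, 0.18, 0.16 and 0.12, and Qars (glutamine) of -0.13. These 7 were not called, with edgeR adjusted p from 0.124 for Yars to 0.623 for Iars. Without vehicle replicate 2, Yars (0.61), Nars (0.60), Mars (0.58) and Aars (0.59) were called, with edgeR adjusted p of 0.00610, 0.0136, 0.00461 and 0.0258, and Iars at 0.51 was not (adjusted p = 0.0511).

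The same libraries stood apart within their group for most of the cytosolic genes. A list of 13 synthetases commonly given as ATF4 targets (Aars, Cars, Eprs, Gars, Iars, Lars, Mars, Nars, Sars, Tars, Vars, Wars, Yars) was compared with the 8 other cytosolic or dual genes. Vehicle replicate 2 was the highest vehicle library for 11 of the 13 genes (84.6%), for 6 of the 8 other genes and for 42.3% of all tested genes. Its CPM was a median 1.48 times the mean of vehicle replicates 1 and 3 over the 13 genes (0.97 to 1.89), 1.13 times over the 8 others, 1.14 times over the mitochondrial genes and 1.00 times over all genes. AOA replicate 1 was the lowest AOA library for all 13 genes, for 7 of the 8 others and for 39.9% of all tested genes, with medians of 0.76, 0.89, 1.02 and 1.01 times the mean of AOA replicates 2 and 3 in the same order of groups. Aars showed this most clearly in the vehicle cultures, at 80.8, 158 and 86.5 CPM with vehicle and 92.7, 141 and 134 CPM with AOA, and Iars had 92.7, 159 and 89.6 CPM with vehicle and 93.6, 149 and 138 CPM with AOA. For both genes AOA replicate 1 was close to vehicle replicates 1 and 3, and vehicle replicate 2 was the highest of the 6 libraries.

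**Figure D2:**
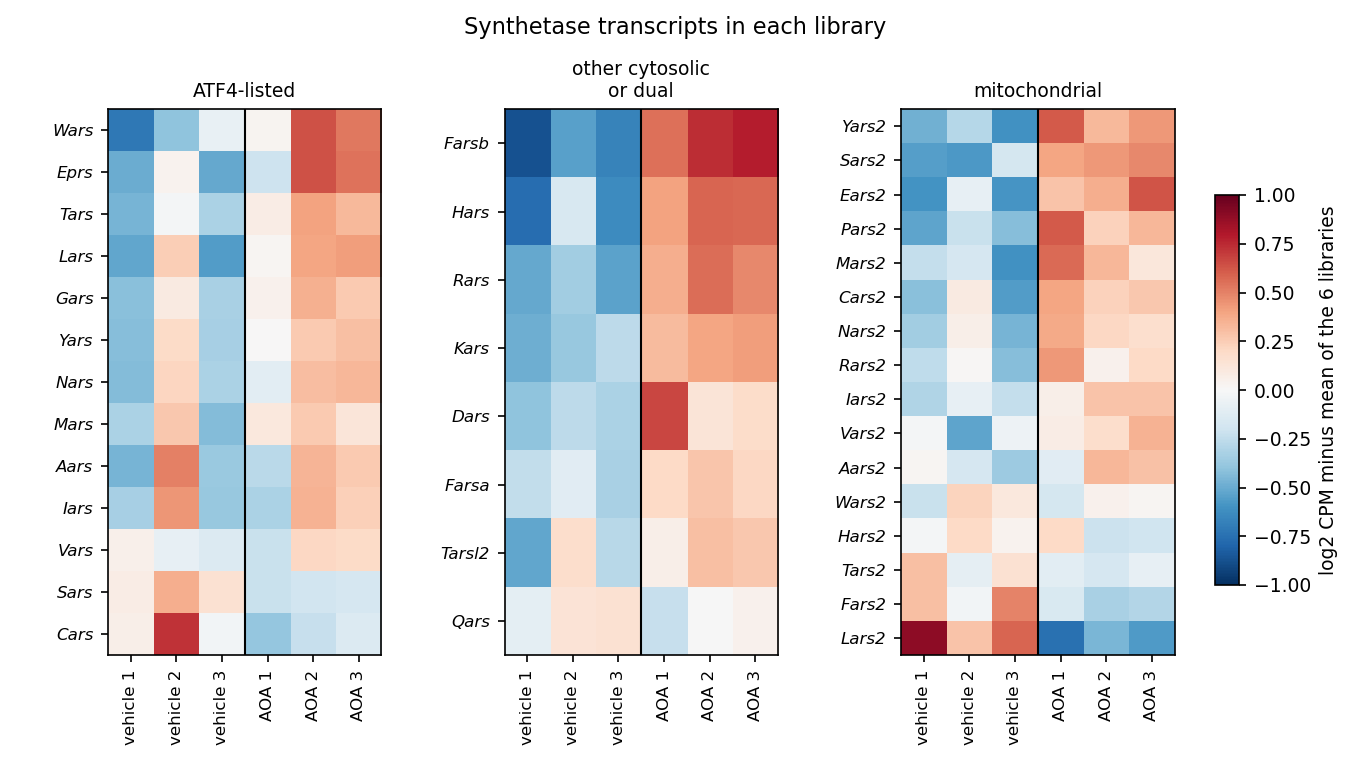
log2 CPM of each synthetase in each of the 6 libraries, centred on the mean of the gene over all libraries (colour, red above and blue below), for the 13 ATF4-listed genes, the 8 other cytosolic or dual genes and 16 mitochondrial genes. Vehicle replicate 2 is the highest vehicle library for 11 of the 13 ATF4-listed genes and AOA replicate 1 the lowest AOA library for 13 of them.

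These lists were counted with and without vehicle replicate 2. Of the 13 listed genes 3 rose and 1 fell (median log2 fold change 0.34), a share of 23.1% that rose beside 26.2% of all tested genes. Of the 8 other cytosolic or dual genes 6 rose (median 0.71) and the other 2, Qars and Tarsl2, were not called. Without vehicle replicate 2, 9 of the 13 rose (median 0.60) and 7 of the 8 (median 0.76), where 29.6% of all genes rose. Without vehicle replicate 1 or 3 or AOA replicate 2 or 3, 1 of the 13 rose (7.69%, beside 21.3 to 23.2% of all genes), and with the mouse as a block 5 did (38.5%, beside 26.6%). In the same fits 5 or 6 of the 8 others rose. Whether the lists differed was not tested. Asns (asparagine synthetase), a strong ATF4 target that is no tRNA synthetase, had 10.9, 44.9 and 12.2 CPM with vehicle and 19.7, 26.3 and 29.0 CPM with AOA, with the same high vehicle replicate 2, and was not called (edgeR adjusted p = 0.823).

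Promoter sequences are shown for the 5 synthetases whose window held a composite C/EBP-ATF element, the kind of site that ATF4 binds with a C/EBP partner. RefSeq promoters of GRCm38.p6, from 250 bases before to 50 bases after the start site, were matched for 28 of the 38 genes. The letters TGATGNAA, on either strand, were found in Aars, Gars, Iars, Tars and Yars, and in 4.51% of the 27025 genes with a promoter in the same table. They are in capitals below, and each sequence reads 5′ to 3′ on the strand of its gene. Where the match lies on the opposite strand, its reverse complement is shown.

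Aars (chr8:111033592-111033891, plus strand): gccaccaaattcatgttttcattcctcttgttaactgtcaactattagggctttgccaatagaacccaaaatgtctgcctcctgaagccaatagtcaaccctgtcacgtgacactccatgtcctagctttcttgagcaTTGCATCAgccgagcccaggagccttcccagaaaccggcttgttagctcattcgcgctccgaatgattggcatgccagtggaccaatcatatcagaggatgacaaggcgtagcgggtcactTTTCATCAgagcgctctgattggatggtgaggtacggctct
Gars (chr6:55037751-55038050, plus strand): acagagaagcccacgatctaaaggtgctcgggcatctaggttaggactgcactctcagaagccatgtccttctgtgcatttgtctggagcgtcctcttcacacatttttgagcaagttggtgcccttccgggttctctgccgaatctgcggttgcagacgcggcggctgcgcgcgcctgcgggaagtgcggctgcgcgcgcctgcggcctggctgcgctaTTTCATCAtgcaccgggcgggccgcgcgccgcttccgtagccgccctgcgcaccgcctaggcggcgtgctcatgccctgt
Iars (chr13:49681880-49682179, plus strand): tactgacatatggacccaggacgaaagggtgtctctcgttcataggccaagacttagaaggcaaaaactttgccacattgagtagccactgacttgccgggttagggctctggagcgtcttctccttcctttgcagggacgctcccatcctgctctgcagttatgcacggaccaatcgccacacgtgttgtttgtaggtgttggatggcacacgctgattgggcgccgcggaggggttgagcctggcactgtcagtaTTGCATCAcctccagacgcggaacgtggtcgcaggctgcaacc
Tars (chr15:11399609-11399908, minus strand): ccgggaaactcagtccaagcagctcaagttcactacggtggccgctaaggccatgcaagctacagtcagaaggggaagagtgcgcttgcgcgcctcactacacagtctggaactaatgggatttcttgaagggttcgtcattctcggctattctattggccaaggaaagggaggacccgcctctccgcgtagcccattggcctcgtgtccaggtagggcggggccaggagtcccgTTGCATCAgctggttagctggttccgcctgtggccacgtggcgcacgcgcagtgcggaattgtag
Yars (chr4:129189653-129189952, plus strand): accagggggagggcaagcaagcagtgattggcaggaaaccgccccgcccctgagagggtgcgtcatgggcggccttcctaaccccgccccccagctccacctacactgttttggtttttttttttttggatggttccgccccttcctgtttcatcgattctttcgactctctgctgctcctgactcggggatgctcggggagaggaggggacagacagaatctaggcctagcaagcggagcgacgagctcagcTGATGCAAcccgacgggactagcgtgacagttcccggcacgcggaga

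The element lay 30 bases before the start in Gars and 15 bases before it in Tars, 112 bases before it in Aars with a further copy after the start, and after the start in Iars and Yars. All 5 genes were on the ATF4 list, which has 8 genes with a matched promoter. None of the 6 other cytosolic or dual genes and none of the 14 mitochondrial genes with a matched promoter held these letters. The list was drawn from common knowledge of ATF4 targets, so the match is not independent of it. The 5 genes had a vehicle replicate 2 at 1.29 to 1.89 times the mean of the other vehicle libraries and an AOA replicate 1 at 0.65 to 0.83 times the mean of the other AOA libraries, beside 0.99 to 1.57 times and 0.58 to 1.42 times for the 9 cytosolic or dual genes without the letters. The ranges overlap. The E-box CACGTG was in a promoter of 5 of the 28 synthetase genes and of 8.09% of all genes, and the palindromic motif of NRF1 in 5 of 28 and in 5.19%. The E-box lay within the Aars, Iars and Tars windows as well, and the NRF1 motif within Tars.

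Several cytosolic enzymes are held in the multisynthetase complex, a particle of 8 enzyme genes (Dars, Eprs, Iars, Kars, Lars, Mars, Qars, Rars) and the scaffold proteins Aimp1, Aimp2 and Eef1e1 (AIMP3). Of the 8 enzyme genes 4 rose and 4 were not called, with a median log2 fold change of 0.59, where 26.2% of all tested genes rose. Without vehicle replicate 2, 6 of 8 rose (29.6% of all genes tested in that fit), and with the mouse as a block 5 of 8 (26.6%). Without vehicle replicate 1 or 3 or AOA replicate 2 or 3, where Eprs lost its call, 3 of 8 rose, beside 21.3 to 23.2% of all genes. Aimp2 and Eef1e1 rose by more than any of the 8 enzyme genes. Aimp2 had 13.1, 20.1 and 12.3 CPM with vehicle and 68.6, 47.5 and 48.7 CPM with AOA, a log2 fold change of 1.86 ± 0.23 (edgeR adjusted p = 2.32e-04). Eef1e1 had 11.7, 19.3 and 13.2 CPM with vehicle and 64.7, 42.6 and 37.8 CPM with AOA, a log2 fold change of 1.71 ± 0.25 (edgeR adjusted p = 5.80e-04). For both, AOA replicate 1 was the highest of all libraries, in contrast to most of the enzymes. Aimp1 had 152, 132 and 163 CPM with vehicle and 132, 107 and 111 CPM with AOA, where the highest AOA library and the lowest vehicle library were almost level, and its log2 fold change of -0.35 ± 0.14 was not called (edgeR adjusted p = 0.0629).

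The cytosolic phenylalanine enzyme is a tetramer of alpha and beta subunits, so its 2 genes serve 1 enzyme. Farsa had 48.3, 52.9 and 45.7 CPM with vehicle and 65.9, 69.4 and 66.1 CPM with AOA, and its log2 fold change was 0.45 ± 0.12 (edgeR adjusted p = 0.0118), which was not called without vehicle replicate 3 (edgeR adjusted p = 0.0564). The rise of Farsb was larger. The log2 ratio of Farsb to Farsa, in CPM per kb of gene length, was -0.91, -0.71 and -0.63 with vehicle and 0.07, 0.18 and 0.30 with AOA. All AOA libraries were above all vehicle libraries, and the mean ratio went from 0.595 to 1.13. Exons of Farsb overlap those of Sgpp2 by 248 bases on the other strand.

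Of the 17 mitochondrial enzymes 8 rose (47.1%) and 2 fell (11.8%), beside 26.2% and 26.8% of all tested genes, with a median log2 fold change of 0.45 (0.64, 0.37 and 0.63 in mice 1, 2 and 3) and of 0.47 without Lars2. The number that rose was 4 without vehicle replicate 3 (23.5%, beside 22.1% of all genes in that fit), and 5 without vehicle replicate 1 or AOA replicate 3 (29.4%, beside 21.3% and 21.8%). In 11 of the 17 every AOA library lay above every vehicle library, as it did in 31% of all tested genes. Yars2, the mitochondrial tyrosine enzyme, had 10.9, 12.5 and 9.99 CPM with vehicle and 23.2, 19.1 and 20.6 CPM with AOA, a log2 fold change of 0.92 ± 0.17 (edgeR adjusted p = 0.00182). Sars2, the mitochondrial serine enzyme, had 13.1, 12.9 and 17.0 CPM with vehicle and 25.2, 25.9 and 26.8 CPM with AOA, a log2 fold change of 0.86 ± 0.16 (edgeR adjusted p = 0.00211). Neither gene had overlapping groups, and both stood at low levels. Pars2, the mitochondrial proline enzyme, had 7.54, 9.32 and 8.09 CPM with vehicle and 16.6, 12.8 and 13.7 CPM with AOA, a log2 fold change of 0.79 ± 0.19 (edgeR adjusted p = 0.00691). These 3 genes were called under every alternative.

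Ears2, the mitochondrial glutamate enzyme, had 3.02, 4.31 and 3.04 CPM with vehicle and 5.56, 5.87 and 7.06 CPM with AOA. This was the lowest level of the family, its groups did not overlap, and its log2 fold change was 0.83 ± 0.25 (edgeR adjusted p = 0.0204). The call was lost without vehicle replicate 1 or 3 or without AOA replicate 3 (edgeR adjusted p of 0.0689, 0.0735 and 0.0911). Mars2 (0.67), Cars2 (0.57) and Iars2 (0.42), the mitochondrial methionine, cysteine and isoleucine enzymes, also rose (edgeR adjusted p = 0.0150, 0.0329 and 0.0239). Mars2 lost its call without vehicle replicate 3 (edgeR adjusted p = 0.0536). Iars2 lost it without vehicle replicate 1 or 3 or AOA replicate 2 or 3 (edgeR adjusted p of 0.0776 to 0.0884). Cars2 lost it in each fit that left out a library other than vehicle replicate 2 (edgeR adjusted p of 0.0558 to 0.111).

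Lars2 and Fars2 fell. Lars2 (chr9:123366927-123462666, plus strand), the mitochondrial leucine enzyme, had 2855, 1876 and 2301 CPM with vehicle and 915, 1119 and 1039 CPM with AOA. The groups were widely separated, and the log2 fold change was -1.19 ± 0.20 (edgeR adjusted p = 0.00105), a level with AOA of 0.437 times that with vehicle. It was called under every alternative. Fars2 encodes the mitochondrial phenylalanine enzyme, a single chain (Entrez 69955, chr13:36117412-36726280, plus strand), and had 30.2, 24.03 and 34.6 CPM with vehicle and 22.02, 19.6 and 20.02 CPM with AOA. Its groups did not overlap, and the log2 fold change was -0.53 ± 0.17 (edgeR adjusted p = 0.0249). The call of Fars2 was lost without vehicle replicate 1 or 3 or AOA replicate 2 or 3 (edgeR adjusted p of 0.0769, 0.138, 0.0772 and 0.0845).

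Counts of Lars2 have a limit of their own. Per kb of gene length Lars2 stood at 528 ± 111 CPM with vehicle and 231 ± 23.2 CPM with AOA (SD, n = 3), while the next mitochondrial enzyme, Iars2, stood at 26.3 ± 2.10 and 35.1 ± 3.11. A transcript of Lars2 (3894 bases) shares bases 3278 to 3349, a stretch of 72 bases at 98.6% identity, with the RNA gene Gm15564. Rn45s, the precursor of the ribosomal RNAs, moved in the same direction, at 6968, 3305 and 4352 CPM with vehicle and 1822, 1554 and 1603 CPM with AOA (-1.55 ± 0.27 on the log2 scale, edgeR adjusted p = 0.00135). The count of Lars2 was 0.41, 0.57 and 0.53 times that of Rn45s with vehicle and 0.50, 0.72 and 0.65 times with AOA, so the ranges overlapped, while within each of the 3 mice the ratio was higher with AOA. How much of the Lars2 count came from RNA other than its own messenger, and the part of this in the fall, was not tested.

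The other 7 mitochondrial enzymes were not called. Nars2 (0.49), Rars2 (0.45), Vars2 (0.39) and Aars2 (0.35), for asparagine, arginine, valine and alanine, had positive log2 fold changes, and Wars2 (-0.08), Hars2 (-0.13) and Tars2 (-0.24), for tryptophan, histidine and threonine, had negative ones. Their edgeR adjusted p ranged from 0.0599 for Rars2 to 0.711 for Wars2. Without vehicle replicate 2, Nars2 (0.70, edgeR adjusted p = 0.00802) and Rars2 (0.61, adjusted p = 0.0132) were called.

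The mitochondrial enzyme was then set against the cytosolic one for the same amino acid within each library, which does not depend on the normalisation between libraries. Of 17 pairs, 3 had a ratio that was higher in every AOA library than in every vehicle library, 6 a lower one, and 8 overlapped. Single genes were separated in 31% of cases upward and 31.1% downward, the share for ratios of other gene pairs was not computed, and the pairs below are a description. The log2 ratio of Sars2 to Sars, in CPM per kb, was -3.45, -3.76 and -3.15 with vehicle and -2.21, -2.20 and -2.17 with AOA. That of Cars2 to Cars was -0.75, -0.91 and -0.80 with vehicle and 0.51, 0.19 and 0.13 with AOA, so that the mean ratio went from 0.566 to 1.21. The third was Yars2 to Yars, with a difference of 0.54. In the serine and cysteine pairs the mitochondrial gene rose and the cytosolic one had a negative log2 fold change.

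The ratios were lower with AOA for leucine, histidine, phenylalanine, tryptophan, threonine and arginine. The log2 ratio of Hars2 to Hars was -0.99, -1.37 and -1.07 with vehicle and -1.94, -2.53 and -2.50 with AOA, a difference of -1.18. That of Fars2 to Farsa was -0.73, -1.19 and -0.45 with vehicle and -1.63, -1.88 and -1.77 with AOA, a difference of -0.97. The differences were -1.73 for Lars2 to Lars, -0.87 for Wars2 to Wars, -0.77 for Tars2 to Tars and -0.49 for Rars2 to Rars. Phenylalanine was the amino acid for which cytosolic subunits rose and the mitochondrial enzyme fell. The log2 ratio of the paralogs Tarsl2 to Tars was -3.24 ± 0.13 with vehicle and -3.36 ± 0.04 with AOA (SD, n = 3), with overlapping groups.

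**Figure D3:**
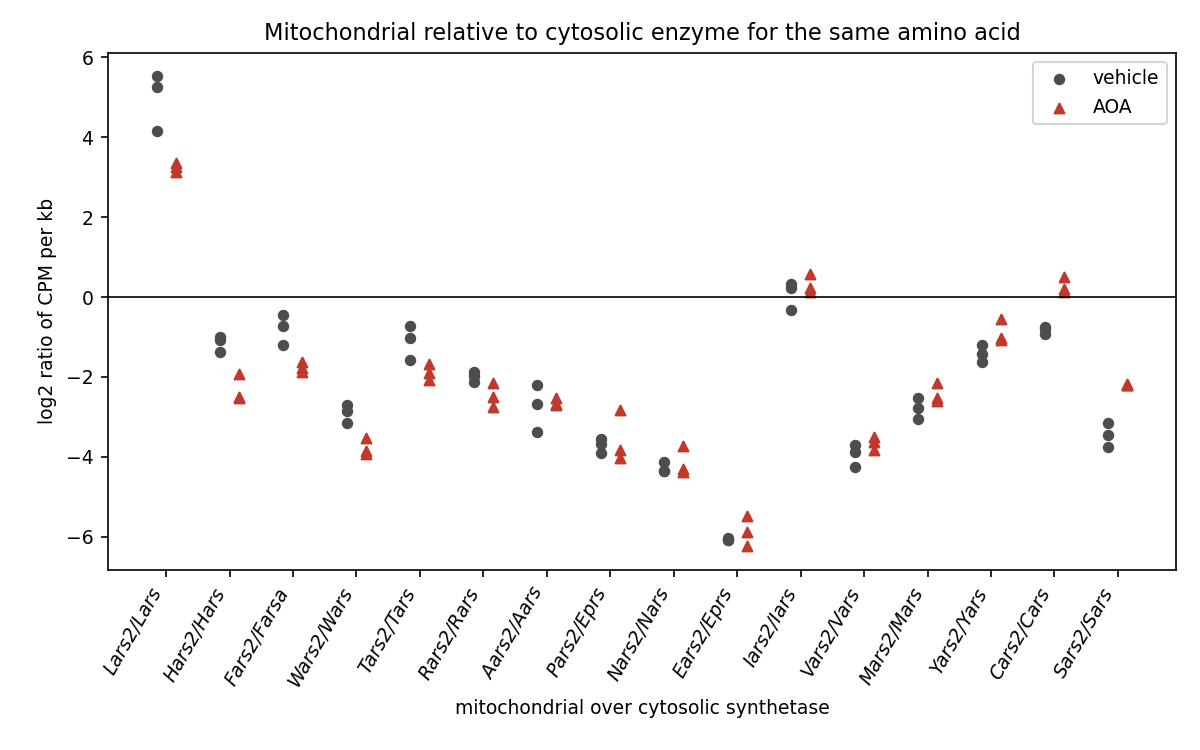
log2 ratio of the mitochondrial to the cytosolic synthetase of the same amino acid (16 pairs) in CPM per kb of gene length, for each vehicle (grey circles) and AOA (red triangles) library, in order of the difference between the groups. The leucine, histidine and phenylalanine pairs at the left are lower in all AOA libraries, and the cysteine and serine pairs at the right are higher.

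Levels of different synthetases were compared per kb of gene length. After Lars2, the highest in vehicle were Gars at 86.6 ± 16.8, Sars at 81.9 ± 8.56, Vars at 81.9 ± 5.57, Qars at 81.2 ± 7.80 and Kars at 71.6 ± 5.77 CPM per kb (SD, n = 3). The ranges of neighbours among these 5 overlapped. With AOA the order was Kars at 121 ± 4.29, Gars at 116 ± 12.7, Vars at 89.1 ± 14.2, Qars at 74.4 ± 7.45 and Rars at 67.9 ± 4.65, and Sars stood at 62.2 ± 1.20. Neighbours in this order overlapped, except that Gars lay above Vars in every library. Kars moved from rank 6 to rank 2 of the 38, and Farsb from rank 21 to rank 13. Mitochondrial enzymes other than Lars2 and Iars2 lay between 0.529 and 15.6 CPM per kb with vehicle, and the lowest were Ears2 (0.529 ± 0.114), Nars2 (2.61 ± 0.512) and Pars2 (2.69 ± 0.295). By the vehicle mean, the mitochondrial gene stood above its cytosolic partner in 2 of 17 pairs, those of leucine and, narrowly, isoleucine. The log2 ratio of Iars2 to Iars was 0.22, -0.33 and 0.34 in vehicle replicates 1, 2 and 3. The leucine pair carries the limit of the Lars2 count given above.

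**Figure D4:**
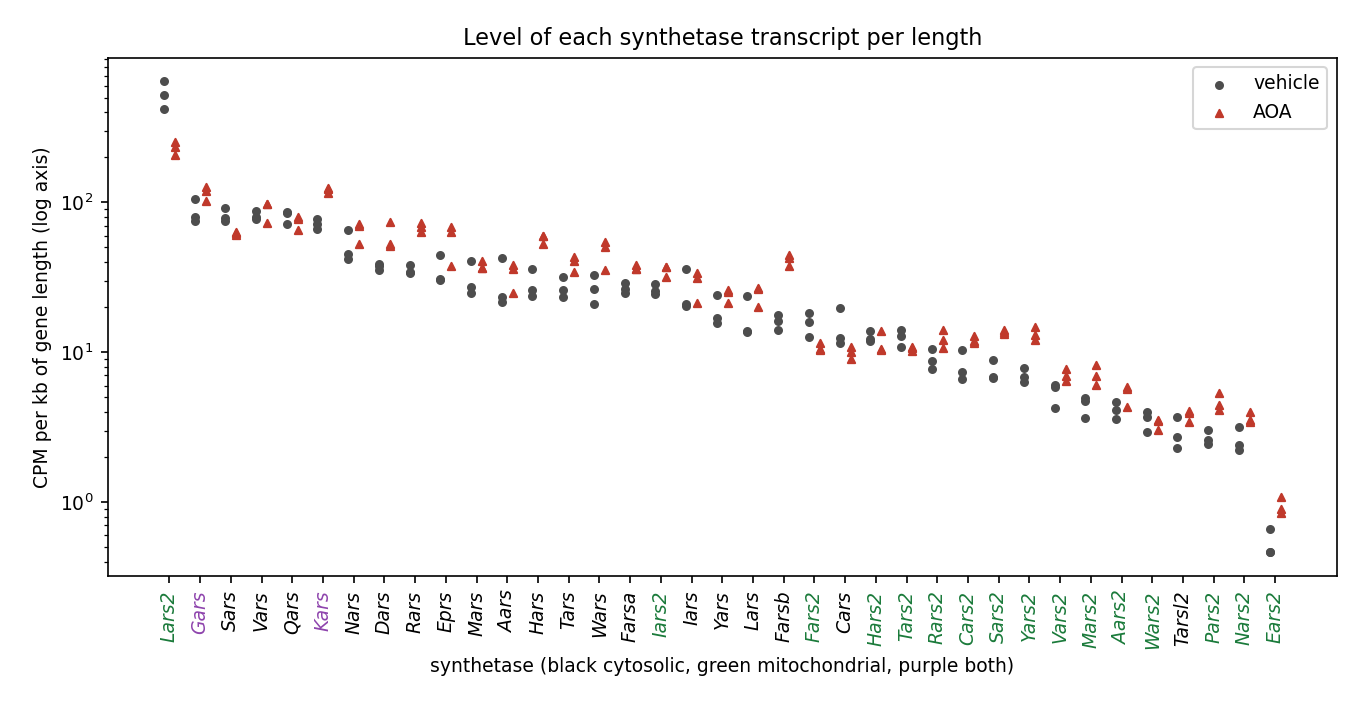
CPM per kb of gene length (log axis) of 37 synthetase transcripts in every library, vehicle as grey circles and AOA as red triangles, in order of the vehicle mean. Lars2 is highest, cytosolic and dual enzymes (black and purple names) fill most of the upper part, and most mitochondrial enzymes (green names) lie below 16 CPM per kb with vehicle.

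Some synthetase genes start within 1000 bases of a protein-coding gene on the other strand, and 7 such pairs are given here. Sars2 starts 172 bases from Mrps12, a mitochondrial ribosomal protein gene that also rose (log2 fold change 0.69, edgeR adjusted p = 0.0237). Orc3, a replication origin gene 13 bases from Rars2, rose by 0.45 on the log2 scale (edgeR adjusted p = 0.0159), beside 0.45 for Rars2, which was not called.

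Other pairs did not move together. Kars rose while Terf2ip, a telomere protein gene 75 bases away, fell by 0.65 on the log2 scale (edgeR adjusted p = 0.00405). Fars2 fell while Lyrm4, an iron-sulfur cluster assembly gene 114 bases away, rose by 1.02 (edgeR adjusted p = 0.00628). S100pbp, 33 bases from Yars, fell by 0.44 (edgeR adjusted p = 0.0310), with Yars at 0.36 and not called. Ubfd1, 88 bases from Ears2, had a log2 fold change of 0.00. Hars and Hars2 start 197 bases apart on chromosome 18 and share 195 exon bases on opposite strands. Hars rose and Hars2 did not pass the test (-0.13).

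**Figure D5:**
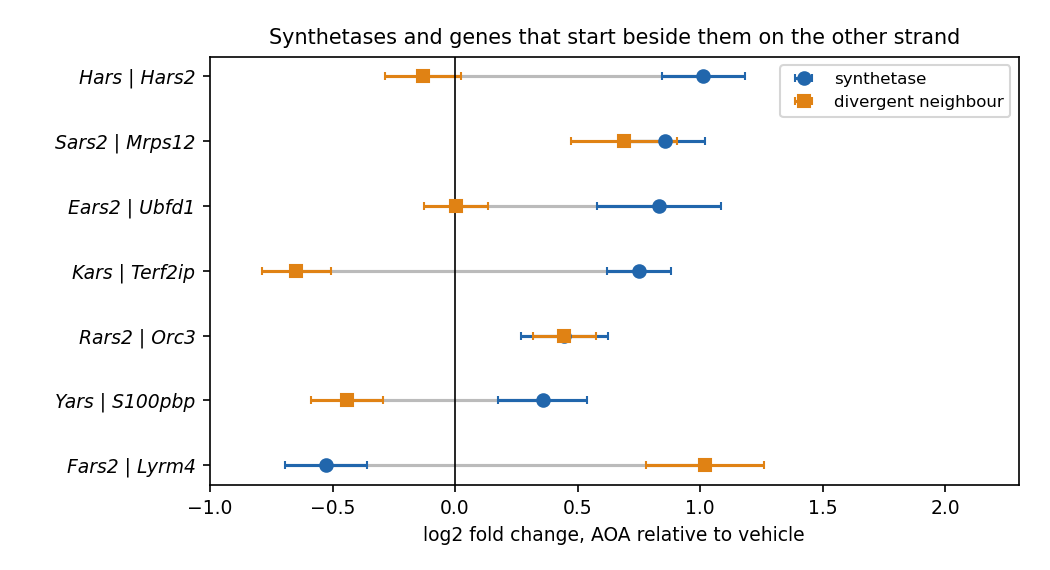
log2 fold change with 1 SE of each synthetase (blue circles) and of the protein-coding gene that starts within 1000 bases on the other strand (orange squares). Sars2 and Rars2 lie on the same side of 0 as their neighbours, and Kars, Fars2 and Yars lie on the opposite side.

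Some counts are uncertain because of shared or overlapping sequence, although uniquely mapped reads were counted. Aars shares 1326 exon bases with Exosc6, and Tarsl2 shares 120 with Tm2d3, both on the same strand. Iars has a processed pseudogene, Gm4849, alike over 1656 bases at 96.0% identity. Iars2 overlaps Rab3gap2 and 2010103J01Rik over 2148 bases, and Cars2 overlaps Naxd over 422 bases. Fars2 overlaps Lyrm4 and Nrn1 over 616 bases, and Mars overlaps Ddit3 over 68 bases. All these partners lie on the opposite strand. No source used here says whether the counting used strand, and without strand the reads of these opposite-strand partners cannot be told apart.

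Genes that act with the synthetases were read from short lists of the same pathway, and their counts stand beside 26.2% of all tested genes that rose and 26.8% that fell. Among 4 editing and proofreading factors, Aarsd1, which clears mischarged alanine tRNA, rose (0.96 ± 0.14 on the log2 scale, edgeR adjusted p = 4.51e-04) and the other 3 were not called. Mitochondria charge glutamine tRNA through the GatCAB amidotransferase, in place of a glutaminyl-tRNA synthetase of their own. Of the 3 GatCAB genes (Gatb, Gatc, Qrsl1), Gatb rose (0.84 ± 0.29, edgeR adjusted p = 0.0330) as did Qrsl1 (0.65 ± 0.18, edgeR adjusted p = 0.0123). The fourth gene of the list of charging partners, Mtfmt, which formylates initiator methionyl-tRNA, was at -0.42 ± 0.19 and was not called (edgeR adjusted p = 0.0950). Of 8 genes for mitochondrial tRNA maturation, Gtpbp3 fell (-0.60 ± 0.18, edgeR adjusted p = 0.0184) and the other 7 were not called. In 1 of these 8 genes every AOA library lay above every vehicle library, and in 2 every AOA library lay below, beside 31% and 31.1% of all tested genes.

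Elongation factors take the charged tRNA to the ribosome and move it on. These lists are short, and their counts stand beside 26.2% of all tested genes that rose and 26.8% that fell. Of 4 mitochondrial factors Gfm1 (0.80 ± 0.14, edgeR adjusted p = 0.00148) and Tsfm (0.70 ± 0.16, edgeR adjusted p = 0.00585) rose, and Gfm2, which recycles ribosomes, fell (-0.41 ± 0.14, edgeR adjusted p = 0.0356). Of 5 cytosolic factors Eef1g rose (0.60 ± 0.18, edgeR adjusted p = 0.0201) and Eef2 fell (-0.79 ± 0.20, edgeR adjusted p = 0.00880). Selenocysteine is made on seryl-tRNA, the product of Sars, by steps that include the PLP enzyme Sepsecs. Sepsecs had 5.32, 9.19 and 6.46 CPM with vehicle and 9.42, 6.77 and 6.66 CPM with AOA, with overlapping groups, and was not called (0.12 ± 0.26 on the log2 scale, edgeR adjusted p = 0.722). Of 5 selenocysteine genes, Eefsec, the elongation factor for selenocysteyl-tRNA, rose (1.19 ± 0.15, edgeR adjusted p = 2.60e-04) and the other 4 were not called.

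The sensing of uncharged tRNA was read from 4 genes, of which Gcn1 was not called (0.17 ± 0.19 on the log2 scale, edgeR adjusted p = 0.466). Eif2ak4, which encodes GCN2, fell (-0.84 ± 0.17, edgeR adjusted p = 0.00280), and Eif2s1, its substrate eIF2α, rose (1.33 ± 0.20, edgeR adjusted p = 7.06e-04). Atf4 itself had 306, 353 and 276 CPM with vehicle and 161, 159 and 138 CPM with AOA, and fell (-1.03 ± 0.15, edgeR adjusted p = 4.81e-04). Its messenger does not give its protein level, since ATF4 is controlled mainly in translation. Of 13 tested ATF4 targets that are no synthetases, 3 rose and 3 fell (23.1% each), shares close to the 26.2% and 26.8% of all tested genes. The serine and one-carbon genes Psat1 (1.93 ± 0.26, edgeR adjusted p = 3.83e-04), Shmt2 (1.49 ± 0.25, edgeR adjusted p = 0.00104) and Phgdh (1.22 ± 0.13, edgeR adjusted p = 1.10e-04) rose. The stress genes Ddit3 (-2.31 ± 0.16, edgeR adjusted p = 1.51e-05), Trib3 (-1.09 ± 0.16, edgeR adjusted p = 5.30e-04) and Ddit4 (-1.003 ± 0.12, edgeR adjusted p = 1.96e-04) fell.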

How the data were processed

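RNA was sequenced from 6 cultures (3 vehicle, 3 AOA, 3 donor mice). Libraries were stranded, made from messenger RNA and read as paired ends. Per the labels, the submitters' processing notes name bcl2fastq, STAR, featureCounts, DESeq2 and the mm10 build. The authors deposited raw counts of each gene with its length in bases, which was used only for CPM per kb. Their versions, annotation, strand setting and gene filter are not stated in the sources used here.

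Members, lists and motifs were chosen with earlier results of these data known. Counts were fitted in R 4.3.3 with edgeR 4.0.16 (filterByExpr with minimum count 10, TMM, robust quasi-likelihood test, Benjamini-Hochberg adjustment, threshold 0.05). Values per library were given for the 5 called genes per class and direction with the largest log2 fold change, Gars, Kars, Tarsl2, uncalled genes beyond 0.5, Sepsecs, Atf4 and Asns. Of each other list, up to 3 called genes per direction were named with log2 fold changes. Further genes given in full were chosen after their values were seen. Alternatives were DESeq2 1.42.0, limma 3.58.1 (voom), other size factors and filters, each library left out, and a replicate block for the donor mouse. The pairing comes from the labels, which name the same mouse donors in both groups. For mice 1, 2 and 3, the deviations of the paired libraries from their groups had an r over genes of 0.0868, 0.189 and 0.194 (genes are not independent). Positions and exon overlaps came from GENCODE vM21 (GRCm38), shared sequence from BLAST 2.17.0 (at least 50 bases at 95% identity), and promoters from RefSeq. The fits of edgeR, DESeq2 and limma were checked on simulated counts. Results of 1 member gene are counted in the totals but not reported here.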

Additional observations from a re-analysis of the deposited data

How the results depend on the processing

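The counts for the family and the counts and medians of the cytosolic and mitochondrial genes were recomputed under 13 alternatives, and 17 of 38 genes kept their call and direction in all of them, 11 of the 20 called genes among them. With 3 cultures per group, calls near the threshold changed at low levels (Ears2, 3.02 to 7.06 CPM) and at high levels (Eprs, Sars). Of the gene values, 34 lost a call, 20 gained one and 1 turned direction: Wars2 ranged from -0.18 without vehicle replicate 1 to 0.044 without vehicle replicate 2. The number of cytosolic genes that fell was 2 with DESeq2, 0 with total counts only and 2 with at least 10 CPM in 3 libraries. The median log2 fold change of all tested genes, near 0 throughout, was -0.01 with total counts only, -0.0012 with no low-count filter and 0.0038 with at least 10 CPM in 3 libraries. When each library was left out in turn, 10 to 26 synthetase genes rose and 1 to 3 fell, 5 to 14 cytosolic genes rose and 0 to 1 fell, and 4 to 10 mitochondrial genes rose and 1 to 2 fell. The medians then ranged from 0.42 to 0.61 for mitochondrial genes, from 0.27 to 0.61 for cytosolic genes and from -0.0423 to 0.0155 for all tested genes. With the mouse as a replicate block, 19 synthetase genes rose and 3 fell, with medians of 0.41 (cytosolic) and 0.45 (mitochondrial), and beyond the changed calls of Gars, Lars, Cars and Sars the block changed no other call. The cause of these changes was not tested.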
